A study of Mus musculus with 21 samples.

Results

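The genes described here are p53, 5 known targets of p53, and 4 further genes that encode inhibitors of cyclin-dependent kinases: Trp53, Mdm2, Ccng1, Cdkn1a, Cdkn1b, Cdkn1c, Cdkn2a, Cdkn2b, Gdf15 and Sfn. They were chosen by name, with Ensembl identifiers matched to symbols, and all 10 were found among the 49315 gene identifiers counted. Their RNA was measured in epidermal sheets of mouse skin by sequencing of total RNA after removal of ribosomal RNA. The study concerns AP-2α and AP-2β, transcription factors encoded by Tfap2a and Tfap2b, and the series held 21 samples in 7 groups of 3. At 6 months of age the groups were mice labelled K14CreTfap2afl/flTfap2bfl/fl, called labelled double knockouts here because of a check given below, and wild-type strain-specific controls. At 3 weeks the only libraries with counts were 2 labelled K14CreTfap2bfl/fl, the Tfap2b knockout. In the other 13 files, all from 3 weeks, every gene was listed at 0, so the single comparison tested was that of 3 libraries with 3 libraries at 6 months. In K14Cre mice the Krt14 promoter drives Cre recombinase, so floxed alleles are deleted in basal keratinocytes and the cells that descend from them, while T cells, Langerhans cells, melanocytes and dermal cells in the same sheet keep both genes. The labels do not say whether samples came from separate animals, and p-values measure the spread between these samples, which may be technical.

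The p53 protein is a transcription factor that accumulates after DNA damage and other stress, and its own target Mdm2 encodes the ubiquitin ligase that marks p53 for destruction. Much of the p53 arrest is carried by p21, the product of Cdkn1a, which binds cyclin-dependent kinases together with its relatives p27 (Cdkn1b) and p57 (Cdkn1c) in the CIP/KIP family. The INK4 family, with the products of Cdkn2a and Cdkn2b, instead blocks the kinases CDK4 and CDK6 that release cells from G1. In epidermis, basal keratinocytes divide and their daughters leave the cycle as they move up, and several of these inhibitors are also switched on as keratinocytes differentiate.

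The 8 libraries with counts held 11318181 to 17746284 counts. Control replicates 1 and 2 stood apart from the other 6 libraries: 35794 and 39362 genes had at least 1 count in them, against 23454 to 25537 elsewhere, and odorant and vomeronasal receptor genes, known for their use in the nose, held 1.61 and 3.19 counts per exonic kilobase against 0.0970 to 0.195. Neither targeted gene was lost from the gene-level counts. Tfap2a held 164.6, 140.3 and 210.1 counts per 1000000 counts of the library (CPM) in control replicates 1, 2 and 3, against 228.6, 213.2 and 309.2 CPM in replicates 1, 2 and 3 labelled double knockout. For Tfap2b the values were 57.3, 86.6 and 71.03 CPM against 53.8, 57.2 and 56.9 CPM, and neither gene passed the threshold (edgeR adjusted p = 0.118 and 0.111). Counts over a whole gene also include reads outside a deleted exon, so groups are named by their labels throughout. Keratinocyte markers were abundant in every library, with the basal list summing to at least 6949.8 CPM and the suprabasal list to at least 9015.6 CPM.

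Promoter sequences are shown first, because p53 and AP-2 both act by binding DNA and the windows show which letters lie at the starts of these genes. RefSeq promoter windows of 300 bases (GRCm38.p6, 250 bases before the start of the transcript and 50 after) were on hand for 9 of the 10 genes. They were searched for the p53 half-site and for the AP-2 palindrome GCCNNNGGC, both of which read the same on either strand. The 4 windows below are shown up to 30 bases into the transcript, 5′ to 3′ on the strand of the gene, with both kinds of match in capitals. Cdkn1a and Cdkn2b were lower in the labelled double knockouts, and Mdm2 and Ccng1 are p53 targets whose fitted values had opposite signs and did not pass the test. The windows are those of Cdkn1a at chr17:29090729-29091008 on the plus strand, Mdm2 at chr10:117710729-117711008, Ccng1 at chr11:40755257-40755536 and Cdkn2b at chr4:89311003-89311282, the last 3 on the minus strand.
Cdkn1a: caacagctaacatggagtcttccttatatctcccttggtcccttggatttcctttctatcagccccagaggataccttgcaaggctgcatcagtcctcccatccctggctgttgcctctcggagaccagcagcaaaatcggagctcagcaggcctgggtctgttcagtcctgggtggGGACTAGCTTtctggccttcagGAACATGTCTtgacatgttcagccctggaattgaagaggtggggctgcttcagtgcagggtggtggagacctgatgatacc
Mdm2: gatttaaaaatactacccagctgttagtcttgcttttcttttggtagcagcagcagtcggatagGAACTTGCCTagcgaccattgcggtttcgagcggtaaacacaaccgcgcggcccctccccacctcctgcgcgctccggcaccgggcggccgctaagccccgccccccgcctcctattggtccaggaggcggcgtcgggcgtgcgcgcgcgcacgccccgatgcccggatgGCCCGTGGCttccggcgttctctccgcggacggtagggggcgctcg
Ccng1: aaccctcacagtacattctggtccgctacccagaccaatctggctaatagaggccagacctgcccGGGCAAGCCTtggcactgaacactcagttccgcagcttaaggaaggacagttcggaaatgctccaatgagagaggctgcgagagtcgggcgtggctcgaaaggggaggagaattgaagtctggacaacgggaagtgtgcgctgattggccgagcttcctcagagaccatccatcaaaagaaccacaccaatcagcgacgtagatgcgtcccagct
Cdkn2b: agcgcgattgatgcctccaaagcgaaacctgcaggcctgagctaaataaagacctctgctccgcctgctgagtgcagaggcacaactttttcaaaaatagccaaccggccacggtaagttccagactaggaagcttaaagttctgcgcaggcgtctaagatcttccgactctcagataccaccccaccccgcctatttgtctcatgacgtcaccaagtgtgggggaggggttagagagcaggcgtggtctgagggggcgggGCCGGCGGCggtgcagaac

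The p53 half-site was matched in windows of 4 of the 9 genes. In Cdkn1a it began 73 and 51 bases before the start, as GGACTAGCTT and GAACATGTCT, while a later Cdkn1a window at chr17:29093519-29093818 held neither motif. Mdm2 held GAACTTGCCT at 186 bases, Ccng1 GGGCAAGCCT at 185 bases and Trp53 itself GGACTTGCCC at 75 bases before the start. Among all 32851 windows of the same length, 8.36% held such a match, and 9.55% of the 27025 genes had 1 in any window. The AP-2 palindrome was also matched in 4 genes: Mdm2 (GCCCGTGGC, 16 bases before the start), Cdkn1b (GCCCGGGGC, 96 bases before), Cdkn2a (GCCGGGGGC, 19 bases before) and Cdkn2b (GCCGGCGGC, 11 bases after the first base). It occurred in 16.6% of all windows and in 18.5% of genes. Mdm2 was the gene with both. These matches describe letters in a window and are not evidence of binding.

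The comparison at 6 months asked how expression differs in adult epidermis when both AP-2 genes are targeted. Of the 10 genes, 8 had enough counts to be tested, 3 were lower in the labelled double knockouts (Cdkn1a, Cdkn1c and Cdkn2b) and 0 were higher in edgeR. All 3 encode inhibitors of cyclin-dependent kinases, as does Cdkn1b, which was tested and did not pass. The 10 genes were chosen to include such inhibitors. Cdkn1c reached the count minimum only in the controls, the group where it was higher. An unadjusted p under 0.05 was found for 5 of the 8, against 5690 of the 17755 genes tested, and DESeq2 called 4 lower and limma-voom 3, with 0 higher in either. The number of the 8 that passed in edgeR fell to 0 when any 1 labelled double knockout, or control replicates 1 and 2 together, were removed, and to 1 without control replicate 2. Across all genes tested by edgeR's quasi-likelihood method, 14.9% passed an adjusted p of 0.05, 8.59% as lower and 6.26% as higher. DESeq2 called 21.6% of all genes (12.3% lower and 9.25% higher) and limma-voom 12.3% (6.65% lower and 5.67% higher). The remaining 5 tested genes, Trp53, Mdm2, Ccng1, Cdkn1b and Sfn, did not pass. In 5 of the 8 genes every library of one group lay above every library of the other (Mdm2, Ccng1, Cdkn1a, Cdkn1c and Cdkn2b), as in 38.7% of all genes tested. The median log2 fold change was -0.44 over the 8 genes and -0.035 over all genes tested. In bulk RNA, fewer cells that express a gene and less of its RNA per cell cannot be told apart.

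**Figure D1:**
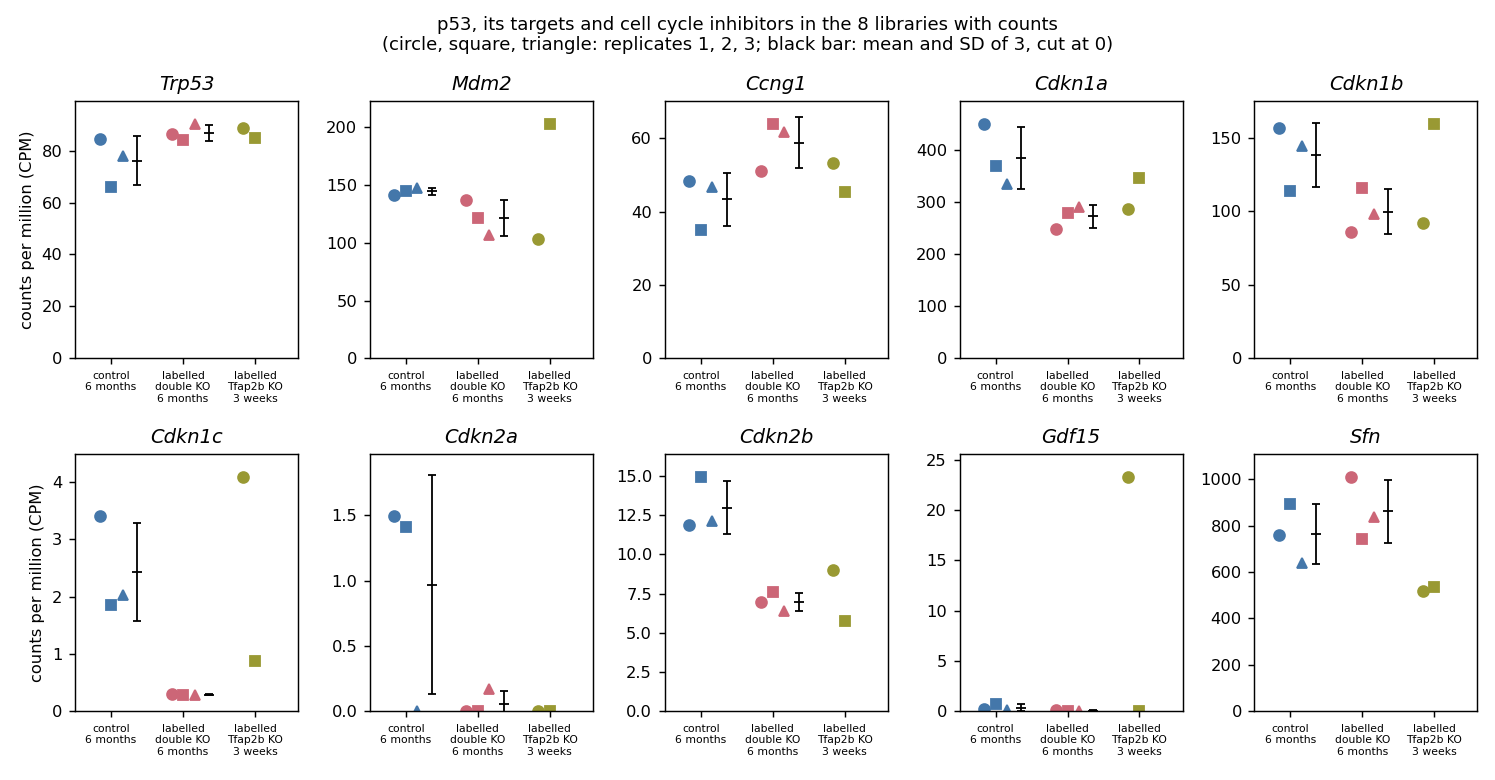
CPM of each gene (vertical axes, each starting at 0 with its own scale) in the 3 control and the 3 labelled double knockouts at 6 months and the 2 libraries labelled Tfap2b knockout at 3 weeks. Points are libraries, with replicates 1, 2 and 3 as circle, square and triangle, and black bars are the mean and SD of 3 libraries, cut at 0. Cdkn1a, Cdkn1c and Cdkn2b lie lower in all 3 labelled double knockouts than in all 3 controls, and Gdf15 stands at 23.3 CPM in 1 library from 3 weeks.

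Trp53 RNA did not differ beyond the spread of the libraries. Trp53 (ENSMUSG00000059552, chr11:69580359-69591873, plus strand, GRCm38) held 84.5, 66.0 and 77.8 CPM in control replicates 1, 2 and 3, and 86.5, 84.1 and 90.2 CPM in the labelled double knockouts. Control replicate 1 lay among the libraries of the other group, so the groups overlapped. The fitted log2 fold change, 0.12 (SE 0.14), did not pass (edgeR adjusted p = 0.605). The activity of p53 is set largely through the stability of the protein, which RNA counts do not measure.

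Mdm2 (ENSMUSG00000020184, chr10:117688888-117710758, minus strand), the ligase that limits p53, was at 141.7, 145.0 and 147.5 CPM in control libraries. The labelled double knockouts held 137.3, 121.1 and 106.6 CPM. The controls were close together, and the groups did not overlap, with the lowest control just above labelled double knockout replicate 1. The log2 fold change of -0.33 (SE 0.13) did not pass the threshold (edgeR adjusted p = 0.116), nor did it in any of 16 alternatives, which ranged from -0.39 to -0.21.

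Ccng1 (ENSMUSG00000020326, chr11:40748552-40755311, minus strand) encodes cyclin G1, a p53 target that recruits a phosphatase to MDM2. It held 48.5, 35.1 and 46.6 CPM in control libraries and 51.1, 63.9 and 61.7 CPM in the labelled double knockouts. All 3 libraries of the second group lay above all controls, with control replicate 2 the lowest. The difference, a log2 fold change of 0.36 (SE 0.18), did not pass (edgeR adjusted p = 0.181). Mdm2 and Ccng1, both with a p53 half-site in the window before the start, thus had fitted values of opposite sign, and neither passed.

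Cdkn1a, the gene of p21, fell by 32.8% in the fit. Cdkn1a (ENSMUSG00000023067, chr17:29090979-29100722, plus strand) held 449, 368.3 and 334.5 CPM in control replicates 1, 2 and 3, from 4169 to 5406 counts. In the labelled double knockouts it held 247.5, 279.1 and 289.5 CPM, from 3418 to 5138 counts. Control replicate 1 was the highest library and all 3 controls lay above all 3 others. The means were 383.9 ± 58.8 and 272.04 ± 21.9 CPM (SD, n = 3 each), 1.49-fold lower in the fit, at a log2 fold change of -0.57 (SE 0.15, with an adjusted p of 0.0343 in edgeR). The call was lost in 9 of 16 alternatives, while over all 16 the log2 fold change ranged from -0.65 to -0.35. Leaving out control replicate 1 or 2, or any 1 labelled double knockout, ended it, with values from -0.60 to -0.44. With control replicates 1 and 2 both left out the value was -0.35 (edgeR adjusted p = 0.266).

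Sfn encodes 14-3-3σ, an adaptor that holds cell cycle proteins in the cytoplasm, is a p53 target, and is abundant in stratified epithelia. Sfn (ENSMUSG00000047281, chr4:133600556-133602168, minus strand) held 758, 894 and 639 CPM in control libraries and 1009, 741 and 835 CPM in the labelled double knockouts. The groups overlapped widely, with labelled double knockout replicate 2 below controls 1 and 2. No difference beyond the spread was seen (log2 fold change 0.10, SE 0.17, adjusted p = 0.728 in edgeR). Among its 6 paralogs of the 14-3-3 family, 0 passed in either direction in edgeR, with 1 at an unadjusted p under 0.05. DESeq2 called 1 of them higher and limma-voom 0. Ywhaz was at 0.11 and Ywhae at 0.25 on the log2 scale.

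Gdf15, a secreted stress cytokine induced by p53 and by the integrated stress response, was barely counted at 6 months. Gdf15 (ENSMUSG00000038508, chr8:70629393-70632456, minus strand) had 2, 8 and 1 counts in control libraries and 1, 0 and 0 counts in the labelled double knockouts. It did not reach the level at which genes were tested, and with no filter on low counts it did not pass (edgeR adjusted p = 0.339). The receptor-gene density of control replicates 1 and 2, applied to the length of Gdf15, comes to 2.98 and 5.91 counts, so at 6 months the counts were near that background. A count of 0 in replicates 2 and 3 labelled double knockout allows up to 3 counts, or 0.205 and 0.169 CPM.

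**Figure D2:**
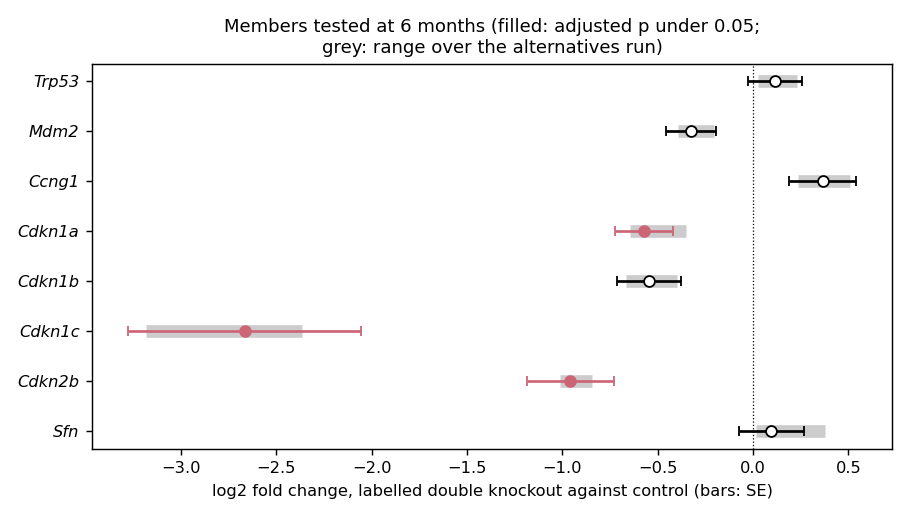
Log2 fold change of the 8 tested genes, labelled double knockouts against controls (horizontal axis), with the SE as a bar. Filled points passed an adjusted p of 0.05 in edgeR, and grey bands give the range over the alternatives. Cdkn1c at -2.67, Cdkn2b at -0.96 and Cdkn1a at -0.57 are the filled points, and no band crosses 0.

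For the CIP/KIP inhibitor p27 the difference did not pass. Cdkn1b (ENSMUSG00000003031, chr6:134920401-134925513, plus strand), known as a brake on cycling cells that is cleared by the ligase SKP2, held 156.5, 114.1 and 144.7 CPM in control libraries. The labelled double knockouts held 85.7, 115.6 and 98.2 CPM. The groups overlapped only through control replicate 2, which lay just under labelled double knockout replicate 2. Its fitted log2 difference was -0.55 (SE 0.17, adjusted p = 0.0546 in edgeR), similar in size to that of Cdkn1a. It passed in 3 of 16 alternatives: with at least 10 counts in every library (-0.58, edgeR adjusted p = 0.0377), in DESeq2 (-0.54, adjusted p = 0.0298), and with the receptor-gene background subtracted (-0.61, edgeR adjusted p = 0.0357).

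The largest fold among the 8 tested genes was that of Cdkn1c, the gene of p57, an imprinted CIP/KIP member expressed from the maternal allele. Cdkn1c (ENSMUSG00000037664, chr7:143458339-143461050, minus strand) held 41, 21 and 31 counts in control libraries, or 3.40, 1.86 and 2.02 CPM. The labelled double knockouts held 4, 4 and 5 counts, or 0.290, 0.273 and 0.282 CPM. The 95% counting intervals of all 3 controls (the lowest bound 1.149 CPM) lay above those of all 3 others (the highest bound 0.742 CPM). The fitted fold was 6.35 lower, a log2 fold change of -2.67 (SE 0.61, with an adjusted p of 0.0108 in edgeR). Receptor-gene background for its length was 3.28 and 6.502 counts in control replicates 1 and 2 and 0.301 in replicate 3, and with it subtracted the value was -2.55, still past the threshold. Cdkn1c reached the count minimum only in the controls, the group where it was higher, and was not tested when 10 counts were required in every library. The call was lost on leaving out any 1 labelled double knockout (-2.64 to -2.61) and with control replicates 1 and 2 both left out (-2.43, edgeR adjusted p = 0.116). The antisense gene Gm44732 overlaps 625 bases of its exons and held 1 count in control replicate 3 and 0 in the other 7 libraries.

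Some lists of other cell types were lower along with Cdkn1c, and others were not. Of all genes tested, 8.59% passed as lower and 6.26% as higher in edgeR. The 6 fibroblast markers summed to 52.98 to 156.8 CPM in control libraries and 11.7 to 23.0 CPM in the labelled double knockouts. Of the 6, 3 passed as lower (Col1a1, Col1a2 and Col3a1), with a list median of -2.16, and 0 did with all libraries in one fit. With control replicates 1 and 2 both left out 0 of them passed, without control replicate 3 all 6 did, and without any 1 labelled double knockout 1 did. Lum, a defining fibroblast gene, was at 0 in replicate 1 of the labelled double knockouts and at 11 to 17 counts in control libraries. Hair follicle markers summed to 56.1 to 100.6 against 16.6 to 40.9 CPM, with 1 of 6 tested genes, Lgr5, lower. The Lgr5 call was lost with control replicates 1 and 2 both left out. Sebaceous markers summed to 739.9 to 910.8 against 198.2 to 235.6 CPM, with 1 of 4 tested, Scd1, lower. The Scd1 call was lost with all libraries in one fit. Scd1, a fatty acid desaturase gene, made up most of that sum, with a mean of 780 CPM in control libraries and 193 CPM in the labelled double knockouts. Mgst1 of the same list overlapped between the groups (-0.18). The list's median log2 fold change, -1.25, was -0.28 without control replicate 2 and 0.25 without both control replicates 1 and 2. Summed levels of the other lists overlapped except for skeletal muscle. Endothelial markers summed to 4.69 to 19.3 against 6.00 to 8.11 CPM, Langerhans and myeloid markers to 75.9 to 128.8 against 92.3 to 155.8 CPM, and melanocyte markers to 10.7 to 23.5 against 8.73 to 19.6 CPM. In these 3 lists 0 genes passed in edgeR, DESeq2 or limma-voom, with 1 of 11 tested, Csf1r, at an unadjusted p under 0.05. T cell markers summed to 79.97 to 160.4 against 90.9 to 210.3 CPM, with 1 of 5, Thy1, higher (1.75, edgeR adjusted p = 0.00494). Adipocyte markers, none of which could be tested, summed to 0.781 to 7.07 against 0.205 to 1.24 CPM. Skeletal muscle markers summed to 3.58 to 9.72 against 0.676 to 1.16 CPM, with the 1 tested gene, Acta1, lower (-1.98, edgeR adjusted p = 0.0445), a call lost without any 1 library. The part of these cells in the Cdkn1c result was not tested.

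Cdkn2b and Cdkn2a lie 11635 bases apart on chromosome 4 in the INK4 locus. Cdkn2b (ENSMUSG00000073802, chr4:89306289-89311032, minus strand) encodes p15, an inhibitor of CDK4 and CDK6 that TGF-β induces in keratinocytes. It held 11.9, 14.9 and 12.1 CPM in control libraries, from 143 to 186 counts, and 6.95, 7.57 and 6.37 CPM in the labelled double knockouts, from 96 to 113 counts. The 2 groups were each tight and clearly apart. Means were 12.97 ± 1.70 and 6.96 ± 0.600 CPM (SD, n = 3 each), 1.94-fold lower in the fit, at a log2 fold change of -0.96 (SE 0.23, with an adjusted p of 0.0226 in edgeR). The size hardly depended on the settings, from -1.01 to -0.84 over 16 alternatives, but the call was lost in 7 of them. Among them, the edgeR adjusted p was 0.0572 with all libraries in one fit, 0.0784 to 0.105 when control replicate 2 or 1 of the labelled double knockouts was removed, and 0.167 when control replicates 1 and 2 were both removed.

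Cdkn2a (ENSMUSG00000044303, chr4:89274471-89294653, minus strand) encodes both the INK4 inhibitor p16 and, from another first exon, the ARF protein that binds MDM2. A count per gene cannot separate these products. It held 18, 16 and 0 counts in control libraries and 0, 0 and 3 counts in the labelled double knockouts, and the 2 libraries at 3 weeks held 0. Control replicates 1 and 2, the libraries with the raised receptor-gene background, were the only ones above 3 counts. That background came to 1.89 and 3.74 counts for the length of Cdkn2a, less than the counts seen. Cdkn2a was not tested under the filter used. It passed in 1 of 6 alternatives that tested it, the one without control replicate 3, where it was kept only through its counts in control replicates 1 and 2.

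**Figure D3:**
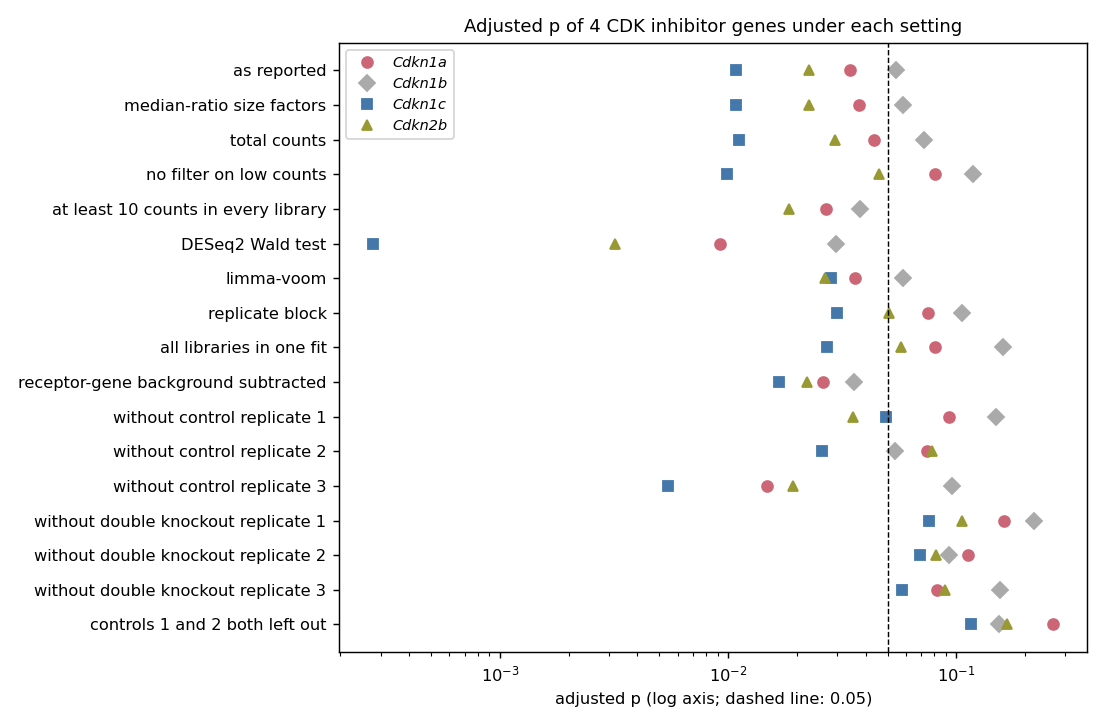
Adjusted p (horizontal log axis, dashed line at 0.05) of Cdkn1a, Cdkn1b, Cdkn1c and Cdkn2b in the fit as reported and in each alternative (rows). Points left of the line passed. Cdkn1c passed in 11 of 15 alternatives, Cdkn2b in 9 of 16, Cdkn1a in 7 of 16 and Cdkn1b in 3 of 16, and none of them passed when a labelled double knockout was left out.

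Levels can be compared between genes only per length, as CPM per kilobase of exon (RPKM). In the controls Sfn was the highest, at 473 ± 79.2 RPKM (SD, n = 3), followed by Cdkn1a at 173 ± 26.4. Cdkn1b (30.4 ± 4.81) and Mdm2 (28.5 ± 0.573) came next and their ranges overlapped. Trp53 stood at 18.8 ± 2.32, above Ccng1 at 12.4 ± 2.07, whose range overlapped that of Cdkn2b at 9.31 ± 1.22. Cdkn1c (1.19 ± 0.418) was lower than all of these, and its range overlapped that of Cdkn2a (0.827 ± 0.717), which in turn overlapped that of Gdf15 (0.169 ± 0.186). Among the inhibitors the order in controls was therefore p21, p27, p15 and p57. In the labelled double knockouts the order of the inhibitors was the same, with Cdkn1a at 122 ± 9.83 RPKM, Cdkn1b at 21.9 ± 3.31, Cdkn2b at 4.998 ± 0.431 and Cdkn1c at 0.138 ± 0.00416. There Mdm2 (23.998 ± 3.03), Cdkn1b and Trp53 (21.5 ± 0.759) overlapped one another in sequence.

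Other genes of the p53 pathway passed in both directions. Of 17 regulators and relatives of p53, 2 passed as higher and 1 as lower, a share near the 14.9% of all genes tested, with a median log2 fold change of 0.20. Without control replicate 3 the numbers were 7 and 1, without control replicate 2 or labelled double knockout replicate 1 they were 1 and 1 or 1 and 0, and with control replicates 1 and 2 both left out 0 passed. Trp73, the gene of the p53 relative p73, rose from 5.98, 4.24 and 9.83 CPM in control libraries to 21.6, 29.2 and 39.3 CPM in the labelled double knockouts (2.07, edgeR adjusted p = 0.00545). Atm, the kinase that signals double-strand breaks to p53, rose (0.77, edgeR adjusted p = 0.0149), and Sirt1, a deacetylase of p53, fell (-0.94, edgeR adjusted p = 0.0358). The Sirt1 call was lost without control replicate 1, without any 1 labelled double knockout and without both control replicates 1 and 2. It was also lost with a replicate block and with all libraries in one fit. The Atm call was lost without control replicate 2 or labelled double knockout replicate 1, and those of Atm and Trp73 without both control replicates 1 and 2. Of 15 other p53 targets in arrest and repair, 3 passed as lower and 3 as higher, against 8.59% and 6.26% of all genes tested. The median of these targets was -0.29.

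The lower targets were Btg2, Plk3 and Plk2. Btg2, an antiproliferative gene, held 545, 895 and 687 CPM in control libraries against 199.95, 166 and 239 CPM (-1.89, edgeR adjusted p = 0.000991). The polo-like kinase genes Plk3 (-1.31) and Plk2 (-0.99) also fell (edgeR adjusted p = 0.0374 and 0.00337), the first a call lost without control replicate 1 or 2 or labelled double knockout replicate 1 or 2. The higher ones were Ddb2, which recognises ultraviolet damage (0.98, edgeR adjusted p = 0.0408), Polk and Sesn1. Among 14 targets in cell death, only Phlda3, an inhibitor of AKT, passed, a share below that of all genes tested, as higher (0.71, edgeR adjusted p = 0.0129); Perp, a desmosomal p53 and p63 target, was at -0.13. The Phlda3 call was lost without control replicate 2, without labelled double knockout replicate 2 and without both control replicates 1 and 2. Thus p21 and Btg2 were lower while Phlda3, Ddb2 and Sesn1 were higher in the same libraries. Without any 1 labelled double knockout 0 arrest and repair targets passed as higher and 2 or 3 as lower, and without control replicate 1 or 2 it was 1 and 2. With both of these controls left out, 1 arrest and repair target passed in each direction and the list's median was 0.0084.

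**Figure D4:**
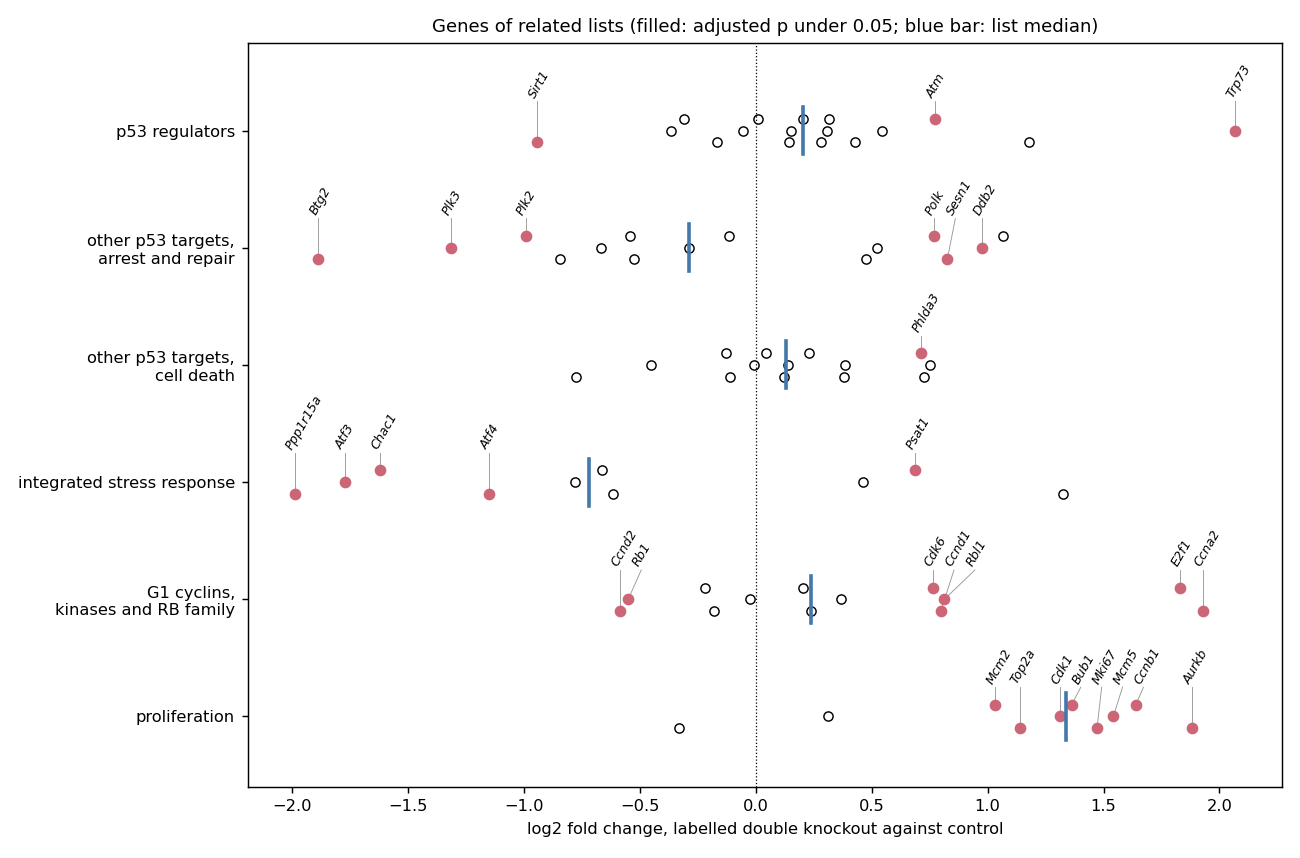
Log2 fold change of each tested gene (points) in 6 related lists (rows), labelled double knockouts against controls. Filled, named points passed an adjusted p of 0.05 in edgeR, open points did not, and blue bars are list medians. The p53 lists spread to both sides of 0, the integrated stress response list has a median of -0.72, and 8 of 10 proliferation genes are filled on the right.

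RNA of G1 cyclins, kinases and RB-family genes differed in both directions. Of 13 such genes, E2f1 included, 5 passed as higher (Ccna2, E2f1, Rbl1, Ccnd1 and Cdk6) and 2 as lower (Ccnd2 and Rb1). The shares of all genes tested were 6.26% and 8.59%. The median of the 13 genes was 0.24. Higher calls numbered 1 without labelled double knockout replicate 1, 2 without control replicate 2 or without both control replicates 1 and 2, 3 without control replicate 1, and 4 to 7 without any other single library. Neither lower call was kept without control replicate 2, without any 1 labelled double knockout, without both control replicates 1 and 2, with no filter on low counts or with all libraries in one fit. Ccna2, cyclin A2, rose by 1.93 and E2f1 by 1.83 on the log2 scale (edgeR adjusted p = 0.00746 and 0.0103). Ccnd1, cyclin D1, held 67.6, 54.96 and 60.2 CPM in control libraries and 109, 94.8 and 131 CPM in the labelled double knockouts. Neither remaining INK4 gene passed in edgeR, DESeq2 or limma-voom, and 0 had an unadjusted p under 0.05, with Cdkn2c at 0.07 and Cdkn2d at -0.61. Of 11 known regulators of these inhibitors only the polycomb gene Rnf2 passed in edgeR as fitted, as lower (-0.67, edgeR adjusted p = 0.0182). That share is near the 8.59% of all genes tested. DESeq2 and limma-voom each called 2 of the 11 lower. The Rnf2 call was lost without any 1 labelled double knockout, with control replicates 1 and 2 both left out, and with all libraries in one fit. Klf4, which activates Cdkn1a, was at -0.52 (edgeR adjusted p = 0.0505).

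Most proliferation markers were higher where p21, p57 and p15 RNA was lower. The sum of the list was 153.0 to 248.9 CPM in control libraries and 403.01 to 538.1 CPM in the labelled double knockouts. Of all genes tested 6.26% passed as higher, and of these markers 8 of 10 did, with a median of 1.34. Birc5 at 0.31 and Pcna at -0.33 did not pass (edgeR adjusted p = 0.472 and 0.368), and both overlapped between the groups. Fewer passed without labelled double knockout replicate 1 (2), 2 (3) or 3 (6), without control replicate 2 (5), and without both control replicates 1 and 2 (2). Basal keratinocyte markers summed to 6949.8 to 9303.2 against 14134.7 to 17349.2 CPM, with 5 of 6 higher (3 without labelled double knockout replicate 1 and 2 without both control replicates 1 and 2). The sixth, Krt15, a keratin of basal and hair follicle cells, had the opposite sign: its mean was 1026 CPM in control libraries and 412 CPM in the labelled double knockouts, without overlap (-1.39, edgeR adjusted p = 0.0513). It did not pass in edgeR as fitted, but passed as lower in 8 of the 16 alternatives, DESeq2 and limma-voom among them. Suprabasal and granular markers overlapped in sum, at 9015.6 to 10983.7 against 10279.4 to 13403.9 CPM, with 1 of 8, Krt1, higher. The rest did not pass and had both signs. Lor was at -1.27, without overlap between the groups (edgeR adjusted p = 0.131), Sbsn at -0.40 and Krtdap at -0.28. Flg was at 1.01, Hrnr at 0.29, Ivl at 0.05 and Krt10 at 0.04. The part of these shifts in the inhibitor results was not tested. Of the senescence-associated list, 0 of 7 tested genes passed in either direction in edgeR and 4 had an unadjusted p under 0.05. DESeq2 called 2 higher and 1 lower and limma-voom 0, and Igfbp3 was at -1.34 (edgeR adjusted p = 0.0750).

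The genes listed for the integrated stress response, the other known input to Gdf15, differed in both directions. Of these 10 genes 4 passed as lower and 1, Psat1, as higher, against 8.59% and 6.26% of all genes tested. Among those that did not pass, Vldlr was at 1.33, without overlap between the groups (edgeR adjusted p = 0.05001), and Asns at 0.46. Ddit3 was at -0.62, Trib3 at -0.78 and Cebpb at -0.66. Over all alternatives run, 3 to 5 of the 10 passed as lower and 0 to 2 as higher. The Psat1 call was lost without control replicate 1 or 2, without both, and without any 1 labelled double knockout, and that of Chac1 in the same cases. Lower calls in the list also numbered 3 in limma-voom and with a replicate block. Atf3, an early stress factor, held 761, 811 and 883 CPM in control libraries against 276, 227 and 254 CPM (-1.77, edgeR adjusted p = 0.000156). Ppp1r15a, which restores translation after stress, was at -1.99, Chac1 at -1.62 and Atf4, the central factor of the pathway, at -1.15 on the log2 scale (edgeR adjusted p = 0.00261, 0.0345 and 0.00545). Gdf15 itself was too low in the control libraries at 6 months to show a fall. With 1, 0 and 0 counts in the labelled double knockouts, against 2, 8 and 1 in control libraries, no rise was seen.

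The 2 libraries labelled Tfap2b knockout at 3 weeks have no control of their age with counts and entered no comparison. Trp53 was alike in them, at 88.7 and 84.9 CPM in replicates 1 and 2, as was Sfn, at 520 and 533 CPM. Others differed between the pair beyond their 95% counting intervals: Mdm2 held 103.5 and 202.8 CPM, Cdkn1b 92.3 and 159.2 CPM, Cdkn1a 285.8 and 345.7 CPM, Cdkn2b 9.02 and 5.75 CPM and, by a narrow margin, Ccng1 53.2 and 45.4 CPM. Replicate 2 was the higher for Mdm2, Cdkn1a and Cdkn1b, and replicate 1 for Cdkn2b and Ccng1. Cdkn1c held 53 counts (4.09 CPM) in replicate 1 and 11 (0.879 CPM) in replicate 2, and Gdf15 held 302 counts (23.3 CPM) in replicate 1 and 0 in replicate 2. T cell markers summed to 75.8 CPM in replicate 1 against 87.0 CPM in replicate 2. Langerhans and myeloid markers summed to 153.1 against 150.7 CPM, and melanocyte markers to 11.9 against 13.6 CPM. Replicate 1 carried far more RNA of some other cells. Fibroblast markers summed to 2556.3 against 17.3 CPM and endothelial markers to 386.8 against 0.320 CPM. Adipocyte markers summed to 712.3 against 0.240 CPM and sebaceous markers to 8290.04 against 551 CPM. In replicate 2 the endothelial genes Cdh5, Kdr and Tek, the adipocyte genes Plin1 and Lep and the fibroblast gene Lum were at 0. The part of those cells in the Cdkn1c and Gdf15 values was not tested.

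Over the 8 libraries, the genes most like each member by Pearson correlation of log2(CPM + 1) were described without a test, since the points share library depth and the differences between groups. Nearest to Cdkn1a was Sdr9c7, an epidermal dehydrogenase gene needed for the lipid barrier (r = 0.99), whose mean was 138.5 CPM in control libraries and 60.2 CPM in the labelled double knockouts. It was also the only gene, among 3 per member for 9 members, that was again among the nearest 3 over the 6 libraries at 6 months alone. For Cdkn1c the nearest was Slc1a3 (r = 0.99), for Cdkn2b Sucla2 (r = 0.97) and for Trp53 Ftsj1 (r = 0.97). None of these was among the nearest 3 over the 6 libraries. For Gdf15 the nearest, Gpx3, rests on the 1 library with high Gdf15.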

How the data were processed

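The values were whole-number counts per gene, deposited by the authors for each sample without normalization. Per the submitters' processing notes, Trimmomatic 0.36, STAR 2.5.2b and featureCounts from Subread 1.5.2 were used, with the builds GRCh38 and GRCm38 named. Strand use and the handling of reads with several positions were not given in the sources used here. Symbols came from GENCODE M21, which held 48970 (99.3%) of the identifiers; coordinates are those of the files, read as GRCm38.

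CPM and RPKM were computed here from the deposited counts with library totals. The 3 libraries per group at 6 months were tested with edgeR 4.0.16 in R 4.3.3: filterByExpr, TMM factors, robust quasi-likelihood fit (prior count 2), Benjamini-Hochberg adjustment over all genes tested, threshold 0.05. The script was tested on simulated data. Counting intervals are exact binomial at 95%, on the total of the library. Like the limit of 3 counts behind a 0, they cover counting error only, because PCR reads without molecular identifiers are not independent molecules. Alternatives were other scalings and filters, DESeq2 1.42.0, limma-voom (limma 3.58.1), the replicate number as a block, all libraries in one fit, subtraction of a background from 1418 receptor genes, and each library left out. Leaving out control replicates 1 and 2 together was chosen after seeing the data. The members and lists were chosen with earlier results of these data known. Named list genes were the up to 4 past the threshold with the largest change and, where fewer than 2 passed, the 2 of highest mean CPM; others passing in lists of few calls were named after their values were seen.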

Additional observations from a re-analysis of the deposited data

Results flagged for a closer look

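Mdm2 stood at 202.8 CPM in the library labelled Tfap2b knockout of replicate 2 at 3 weeks, above all 3 controls at 6 months (141.7 to 147.5 CPM) beyond the 95% counting intervals, in data that entered no comparison. Replicate 1 of that group was at 103.5 CPM, below all 3 of these controls. Gdf15 stood at 23.3 CPM in replicate 1 of the same group, with 0 counts in replicate 2, against at most 0.707 CPM in the controls at 6 months, and likewise lay outside the comparison. The controls differ from these libraries in age, and no control of 3 weeks with counts was analysed here.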

How the results depend on the processing

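All 8 tested genes kept the direction of their log2 fold change in each alternative that tested them. Against 2637 genes past the threshold, the number was 4809 with no filter on low counts, 1548 with all libraries in one fit, 437 with control replicates 1 and 2 both left out, and 668 to 7544 with each library left out in turn, lowest without labelled double knockout replicate 1 and highest without control replicate 3. Of the 10 genes described, 3 passed in the main test, 1 with all libraries in one fit, 0 with control replicates 1 and 2 both left out, and 0 to 4 with each library left out, with 0 for each labelled double knockout left out. With a replicate block 1729 genes passed and 1 of the 10, Cdkn1c, while Cdkn1a (edgeR adjusted p = 0.0752) and Cdkn2b (0.0508) did not. Deviations of same-numbered samples from their group means correlated at 0.028, -0.161 and -0.057, and 1 of 6 samples correlated best with its own number. With 3 samples per group, these values cannot tell whether the numbers pair the samples. With total counts as the scaling 1376 genes were higher and 1327 lower, against 1111 and 1526. With at least 10 counts in every library, Cdkn1c could not be tested. The cause of these differences was not tested. Depth limits Cdkn1c, Cdkn2a and Gdf15, which in the labelled double knockouts held 5 counts or fewer.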
